A study of Saccharomyces cerevisiae with 18 samples.

Results

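RNA that came down with basket-less nuclear pores of budding yeast was compared, gene by gene, with the RNA of the total extract (input). The 6 libraries compared, 3 of basket-less pores and 3 of input, were chosen by their labels from the 18 libraries of the study, which has 6 groups of 3. The basket-less pore libraries hold RNA purified with pores on a GFP nanobody, a small antibody fragment that binds GFP. A GFP control, a background purification on the same nanobody with 3 libraries, is set beside them where it bears on a value, as are 3 libraries labelled all NPCs (nuclear pore complexes), also from the GFP nanobody. The input libraries hold RNA taken by Trizol straight from the extract, with no purification. All groups came from Saccharomyces cerevisiae of strain W303, grown unsynchronised in rich medium (YPD), harvested in log phase and ground frozen, and all libraries were selected for poly(A) RNA. The labels name neither the tagged proteins nor the W303 derivative and the culture that gave the input. Differences between strains or cultures and differences in what came down with the pores therefore cannot be told apart.

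The nuclear pore complex is the channel in the nuclear envelope through which mRNA leaves the nucleus. It is built of ring-shaped scaffold layers, of FG nucleoporins that fill the channel, and of cytoplasmic filaments where the helicase Dbp5 strips export proteins from the mRNA. On the nuclear side sits the basket, made of Mlp1, Mlp2, Nup1, Nup2 and Nup60, which in yeast is present on part of the pores and absent from those next to the nucleolus. The counts do not tell RNA in transit through a pore from RNA that came down with it in another way.

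Library totals ran from 10592840 to 13733038 counts in the 6 libraries. Of 7127 features, 6429 had enough counts to be tested. Between replicates, the chi-square of the counts per degree of freedom, which is near 1 under counting error alone, was 1.6 to 1.94 in basket-less pores and 2.83 to 9.22 in input, the highest being input replicate 1 against replicate 3. Whether replicates were grown separately is not stated in the labels, so p-values reflect the spread among libraries and no more. The receptor mRNA STE2 of a cells was at 213 to 220 CPM (counts scaled to library size) in basket-less pores and 375 to 423 CPM in input. Of all counts, mRNAs specific to alpha cells took 0.00576% in basket-less libraries and 0.0039% in input libraries.

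Most genes differed in share between basket-less pores and input. At an adjusted p below 0.05 (edgeR quasi-likelihood test, Benjamini-Hochberg over 6429 genes, n = 3 per group), 5149 genes (80.1%) were called, 2830 higher (44%) and 2319 lower (36.1%) in basket-less pores. More than 2-fold, 792 were higher (12.3%) and 627 lower (9.75%). Higher genes made up 55% of the calls under TMM scaling, 48.2% under DESeq2's size factors and 39.2% under upper-quartile scaling, and the median log2 fold change of all genes was 0.08, -0.03 and -0.17 under these 3 scalings. All values are shares within a library, and changes are best read against these medians. Counts within gene lists are given for the TMM scaling, and list medians that change sign under another setting are given with that value.

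The GFP control also differed from the same input libraries, with 37.2% of genes called higher and 42.4% lower (2391 and 2729). Because both comparisons share the input, their values are given side by side, and the difference between the purifications was tested directly as basket-less pores over GFP control, which called 47.1% of genes higher and 35.5% lower.

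Among nuclear genes whose mean reached 20 CPM in either group, the largest rise was in PHO89, which encodes a sodium-phosphate cotransporter of the plasma membrane. Its mRNA (YBR296C, chromosome II, 796798 to 798522 in R64) was at 231, 233 and 237 CPM in basket-less pores, 10.7, 10.4 and 10 CPM in the GFP control and 27.7, 25.1 and 24.2 CPM in input. The basket-less libraries lie far above the GFP control and input, and the control lies below input. The log2 fold change over input was 3.18 ± 0.06 (SE; edgeR quasi-likelihood, Benjamini-Hochberg adjusted p = 7.89e-24), against -1.30 for the control over input. The direct difference between basket-less pores and GFP control was 4.49, the largest among the nuclear genes named for their change over input. In all NPCs PHO89 was higher still, at a mean of 266 CPM. Basket-less pores over all NPCs gave -0.19 (edgeR quasi-likelihood, adjusted p = 0.00145), so the rise was not particular to basket-less pores.

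Sensors of the cell surface followed. MTL1, a cell wall stress sensor of the plasma membrane, was at 635, 631 and 615 CPM in basket-less pores, 43.6, 37.2 and 46 CPM in the GFP control and 91.4, 87 and 62.1 CPM in input. That is a log2 fold change over input of 2.97 ± 0.13 (edgeR quasi-likelihood, adjusted p = 3.72e-11), and YGR022C, an open reading frame at the MTL1 locus, rose by 3.13 and need not be separate, since the counting is not stated to use strand. HKR1, a mucin-like osmosensor of the HOG pathway with a coding length of 5409 bases, was at 654 to 657 CPM in basket-less pores, 107 to 123 CPM in the GFP control and 86.8 to 99.9 CPM in input (log2 fold change 2.79 ± 0.08). Of 11 cell surface sensors 10 rose over input and 1 fell, with a median of 0.76 against 0.08 for all genes. The member that fell was SHO1, at -0.44. WSC4, another cell wall sensor, rose by 1.68 over input, but its difference from the GFP control, 0.16, did not pass (adjusted p = 0.0694), and the same holds for OPY2, an anchor protein of the HOG pathway (0.73 over input, 0.08 over the control, adjusted p = 0.105; edgeR quasi-likelihood, Benjamini-Hochberg).

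The other standard-named genes among the 10 largest rises have varied roles. FPK1, a kinase that regulates lipid flippases, rose by 2.53 ± 0.05 and was at 312 to 326 CPM in basket-less pores, 66.3 to 69.6 CPM in the GFP control and 51.4 to 57.6 CPM in input. AZF1, a zinc finger transcription factor, rose by 2.46 ± 0.08, and DUR12, urea amidolyase, by 2.46 ± 0.04. DUR12 was at 870 to 906 CPM in basket-less pores and differed from the GFP control by 2.41. GCV2, the glycine decarboxylase subunit, was also high in the GFP control. It was at 496, 504 and 498 CPM in basket-less pores, 232, 239 and 239 CPM in the GFP control and 93.7, 99 and 95.6 CPM in input. The log2 fold change of 2.38 ± 0.04 over input stands beside 1.30 for the control over input and a tested difference of 1.08 (edgeR quasi-likelihood, adjusted p = 3.92e-18). HPF1, a heavily glycosylated cell wall mannoprotein, was at 3180, 3193 and 3206 CPM in basket-less pores, 828, 909 and 878 CPM in the GFP control and 587, 626 and 640 CPM in input, and had the largest gain in CPM of all genes. In all NPCs over input, MTL1, HKR1 and FPK1 rose further, by 3.34, 3.22 and 2.88. AZF1, DUR12 and HPF1 also rose further there, by 2.93, 2.77 and 2.62. For GCV2 the difference between basket-less pores and all NPCs, 0.08, did not pass (edgeR quasi-likelihood, adjusted p = 0.128). These rises were thus not particular to basket-less pores.

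**Figure D1:**
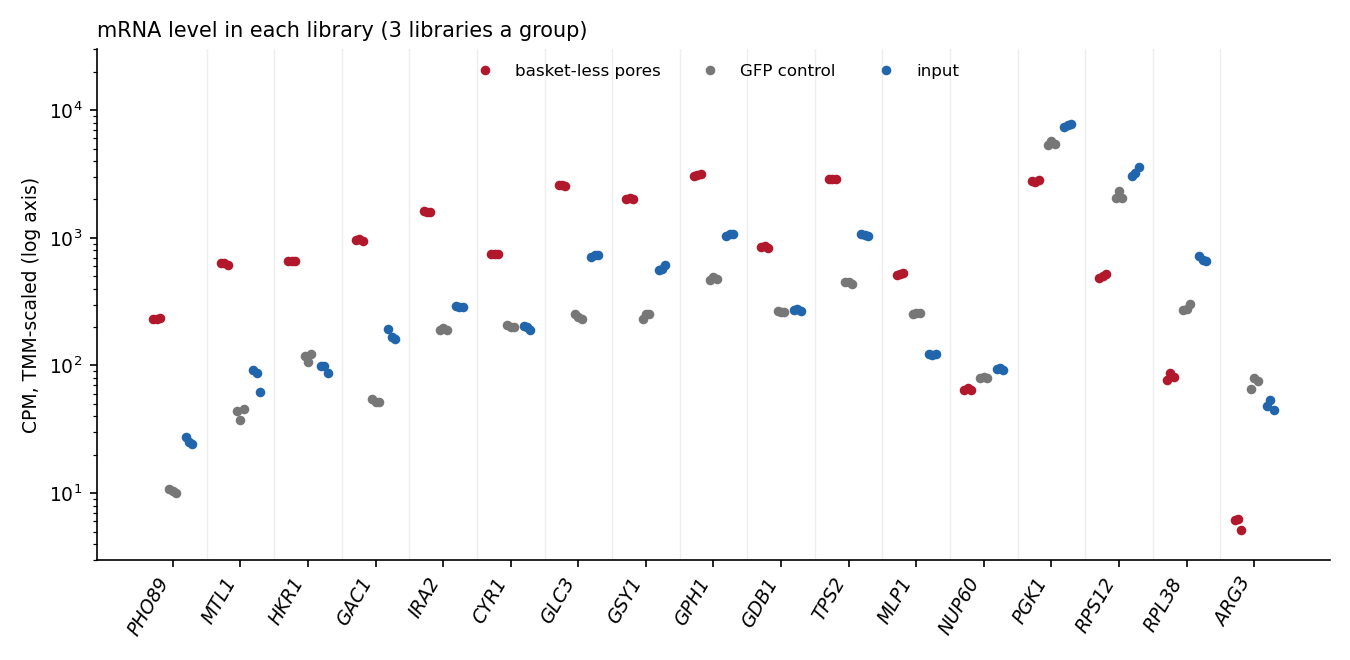
TMM-scaled CPM on a log axis in each of 3 libraries of basket-less pores (red), GFP control (grey) and input (blue), 1 point per library, for 17 genes described in the text. In PHO89, MTL1, GAC1, IRA2, GLC3, GSY1, GPH1 and TPS2 the basket-less libraries lie above input and the GFP control libraries below it, while RPS12 and RPL38 are lowest in basket-less pores and highest in input.

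mRNAs of glycogen metabolism rose over input in 13 of 16 genes and fell in 3, with a median of 0.84, while the same genes fell in 14 and rose in 1 in the GFP control over input (median -1.07). Glycogen is the branched glucose store that yeast builds when growth slows. The list took 1.42 ± 0.0020% of counts in basket-less pores, 0.303 ± 0.0023% in the GFP control and 0.601 ± 0.0036% in input (± SD, 3 libraries each), so that no library of a group reached those of another. An exact two-sided permutation test over 3 against 3 libraries cannot go below p = 0.1, which it gave here for basket-less pores against input. In all NPCs the list took 1.70 ± 0.0057% of counts. Directly against all NPCs, 1 glycogen gene was higher and 11 were lower in basket-less pores (median -0.19). That contrast called 20.3% of all genes higher and 22.8% lower. Its median was -0.01 in genes of 1000 to under 2000 coding bases and -0.19 in those of 2000 to under 3000. The glycogen genes had a median coding length of 1782 bases, and the part of length in their difference was not tested.

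The highest glycogen gene by fold was GAC1, which encodes a subunit that directs protein phosphatase 1 to glycogen synthase. GAC1 was at 967, 976 and 947 CPM in basket-less pores, 54.9, 52.1 and 52.1 CPM in the GFP control and between 161 and 193 CPM in input, a rise of 2.47 ± 0.06 over input (edgeR quasi-likelihood, adjusted p = 5.33e-20). GLC3, the branching enzyme, was at 2594, 2582 and 2548 CPM in basket-less pores, 255, 240 and 230 CPM in the GFP control and 712, 732 and 732 CPM in input (log2 fold change over input 1.83 ± 0.04). GSY1, a glycogen synthase, was at 2009, 2052 and 2014 CPM in basket-less pores, 233, 252 and 252 CPM in the GFP control and 560, 574 and 608 CPM in input (1.80 ± 0.05). In all of these genes the 3 groups stand apart, with the control lowest. In all NPCs GAC1, GLC3 and GSY1 were higher still, at means of 1435, 2909 and 2250 CPM. GPH1, the phosphorylase that releases glucose from the store, rose as well, by 1.55 ± 0.04 (3053 to 3173 CPM in basket-less pores and 1042 to 1073 CPM in input). GDB1, the debranching enzyme, was at 837 to 859 CPM in basket-less pores and about level in the GFP control and input, at 262 to 265 and 265 to 277 CPM. It rose by 1.64 ± 0.03 over input and had the smallest adjusted p of the list (3.73e-23, edgeR quasi-likelihood). Enzymes of synthesis and of breakdown thus rose together. Of the 3 that fell, picked out after their values were seen, GLC7, the catalytic subunit of protein phosphatase 1 with many targets, was at -0.79, PGM1, a phosphoglucomutase, at -0.41 and PIG1, a phosphatase subunit, at -0.41.

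The windows upstream of the 4 glycogen genes with the smallest adjusted p are shown because these genes rose together and because many stress genes of yeast carry the stress response element, with the core AGGGG, that the factors Msn2 and Msn4 bind. Each window runs from 400 to 101 bases before the start codon, 5′ to 3′ in the direction of the gene, from the RefSeq sequence of R64. Capitals mark AGGGG, or its reverse complement CCCCT where the core lies on the other strand. The windows are chrVI:176492-176791 on the minus strand for GSY1, chrV:132720-133019 on the plus strand for GLC3, chrXVI:860906-861205 on the plus strand for GPH1 and chrXVI:901644-901943 on the plus strand for GDB1.
GSY1: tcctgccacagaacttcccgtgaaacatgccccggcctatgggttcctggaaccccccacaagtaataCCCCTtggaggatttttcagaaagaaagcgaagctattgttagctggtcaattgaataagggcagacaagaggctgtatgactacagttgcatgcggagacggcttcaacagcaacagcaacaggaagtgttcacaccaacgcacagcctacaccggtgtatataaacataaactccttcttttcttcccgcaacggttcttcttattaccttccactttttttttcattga
GLC3: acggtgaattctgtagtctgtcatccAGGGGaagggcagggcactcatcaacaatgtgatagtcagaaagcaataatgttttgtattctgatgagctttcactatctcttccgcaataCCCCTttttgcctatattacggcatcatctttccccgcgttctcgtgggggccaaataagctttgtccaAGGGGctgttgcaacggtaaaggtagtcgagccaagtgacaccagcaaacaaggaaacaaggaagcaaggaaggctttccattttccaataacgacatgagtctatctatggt
GPH1: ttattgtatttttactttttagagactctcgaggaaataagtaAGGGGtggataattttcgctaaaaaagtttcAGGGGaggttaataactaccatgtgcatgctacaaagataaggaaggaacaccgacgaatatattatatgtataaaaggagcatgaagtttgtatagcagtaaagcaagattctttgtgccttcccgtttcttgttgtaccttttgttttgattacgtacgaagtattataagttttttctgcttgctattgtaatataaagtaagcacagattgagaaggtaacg
GDB1: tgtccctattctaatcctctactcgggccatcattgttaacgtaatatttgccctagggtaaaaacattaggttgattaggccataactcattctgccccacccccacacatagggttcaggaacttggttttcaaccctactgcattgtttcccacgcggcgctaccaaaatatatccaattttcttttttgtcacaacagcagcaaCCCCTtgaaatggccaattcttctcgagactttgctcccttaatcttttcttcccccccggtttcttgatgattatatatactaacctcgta

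GLC3 holds 3 matches, whose first bases lie 374, 282 and 213 bases before the start codon, and GPH1 holds 2, at 357 and 326. GSY1 and GDB1 hold 1 each, at 332 and 192. AGGGG on either strand was present in 23.8% of the same windows of all 5762 nuclear protein-coding genes tested, in 11 of 16 glycogen genes, 6 of 7 trehalose genes and 37 of 45 general stress genes, and in 16 of 81 large-subunit and 10 of 57 small-subunit ribosomal protein genes. It was present in 8 of 19 genes of the Ras and protein kinase A pathway. The general stress list contains most of the glycogen and trehalose genes, so these shares are not independent. The lists were drawn up from textbook knowledge, with earlier results of these data known. Many stress genes are known to carry this element, so a high share in the stress lists could be foreseen. Whether the element has a part in the changes over input was not tested. At least 2 matches were present in 4.13% of all windows and in 7 of the 16 glycogen windows. A match is a run of letters and was not tested for binding. GAC1, which rose most in the list, has no match in its window.

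mRNAs of trehalose metabolism rose in 7 of 7 genes (median 0.96), with 2 higher and 5 lower in the GFP control over input (median -0.38). Trehalose is a disaccharide that protects proteins and membranes under stress. TPS2, its phosphatase, was at 2880, 2868 and 2869 CPM in basket-less pores, 448, 452 and 437 CPM in the GFP control and 1069, 1056 and 1031 CPM in input (log2 fold change over input 1.45 ± 0.03; edgeR quasi-likelihood, adjusted p = 2.41e-22). TPS3, a regulatory subunit of the synthase, and the hydrolases NTH1 and ATH1 rose by 0.96, 0.97 and 1.58 over input. Synthesis and hydrolysis genes again rose together.

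The wider list of 45 general stress genes, which contains most glycogen and trehalose genes, rose in 31 and fell in 11 (median 0.48). In the GFP control over input 4 rose and 37 fell (median -0.70), and against that control directly 36 rose and 8 fell (median 1.34). The list took 3.46 ± 0.0095% of counts in basket-less pores, 1.23 ± 0.0070% in the GFP control and 1.81 ± 0.014% in input. HXK1, a hexokinase, was at 2840 to 2943 CPM in basket-less pores and 1103 to 1261 CPM in input, and HSP42, a small heat shock protein at 753 to 766 CPM in input, rose by 1.41 ± 0.04. The list did not move as 1 block. HSP12, a small membrane protein of stressed cells, was at -1.55, SPI1, a cell wall protein, at -1.49 and DDR48, a stress protein, at -1.23, all 3 picked out after their values were seen. Heat shock chaperones were called higher in 13 and lower in 11 of 30, with a median of 0.01 that is -0.10 under DESeq2 scaling and -0.25 under upper-quartile scaling. APJ1 and BTN2, a J-protein and a protein sorting factor, rose by 1.51 and 1.19, and CPR6, a Hsp90 co-chaperone, fell by 1.20. BTN2 had 1000 to 1012 CPM in basket-less pores, 103 to 109 CPM in the GFP control and 433 to 453 CPM in input.

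Genes of the Ras and protein kinase A pathway, which carries the glucose signal and represses stress genes, rose in 15 of 19 and fell in 4 (median 0.88). In the GFP control over input 6 rose and 11 fell (median -0.24). IRA2, a GTPase-activating protein that turns Ras off, was at 1614, 1594 and 1585 CPM in basket-less pores, 190, 196 and 188 CPM in the GFP control and 291, 285 and 285 CPM in input, a rise of 2.47 ± 0.05 (edgeR quasi-likelihood, adjusted p = 1.98e-23). CYR1, adenylate cyclase, was at 752, 750 and 752 CPM in basket-less pores, 206, 201 and 200 CPM in the GFP control and 203, 201 and 191 CPM in input (1.92 ± 0.04). The control and input libraries overlap for CYR1, and the basket-less libraries stand far above both. RIM15, a kinase of entry into quiescence, and YAK1, a kinase that opposes growth, rose by 1.85 and 1.67. Activators and inhibitors of the pathway thus both rose, and the 4 genes that fell, RAS1 (-0.46), PDE2 (-0.33), SRV2 (-0.16) and BCY1 (-0.09), fell by little.

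**Figure D2:**
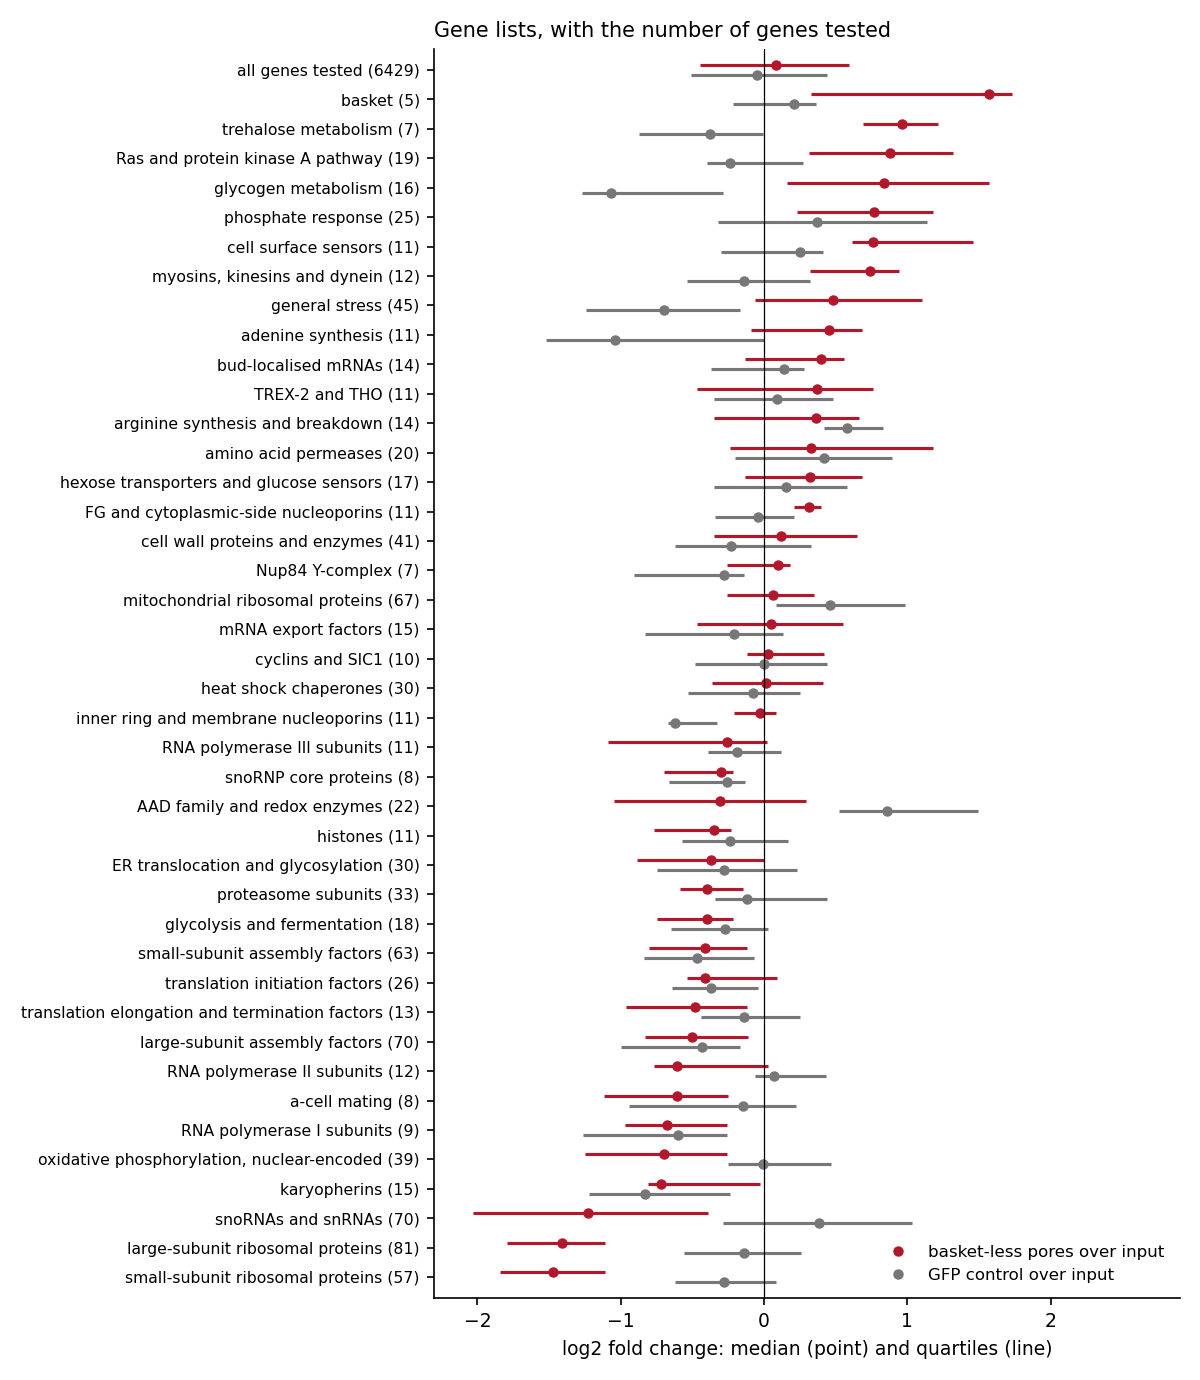
Median (point) and quartiles (line) of log2 fold change in the gene lists drawn, for basket-less pores over input (red) and GFP control over input (grey), which share the input libraries, with the number of genes tested in brackets. Glycogen, trehalose and general stress lists have a red median above 0 and a grey one below 0, and ribosomal protein lists have red medians of -1.41 and -1.47, with grey ones of -0.14 and -0.28.

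Genes of the phosphate response rose in 19 of 25 and fell in 3 (median 0.77), and in the GFP control over input 15 rose and 7 fell (median 0.37). PHO5, the secreted acid phosphatase, was at 376, 380 and 379 CPM in basket-less pores, 254, 259 and 251 CPM in the GFP control and 117, 115 and 115 CPM in input (log2 fold change over input 1.71 ± 0.04; edgeR quasi-likelihood, adjusted p = 7.48e-22). PHO81, the inhibitor of the Pho80-Pho85 kinase, rose by 1.61, and 0.67 in the control over input. PHO89, described above, is among the 7 that were lower in the control. PHM8, a phosphatase, fell by 1.64. Directly over the GFP control, 13 phosphate genes were higher and 7 lower. Of 20 amino acid permeases 14 rose and 6 fell in basket-less pores (median 0.33), and 11 rose and 8 fell in the control (median 0.42). With upper-quartile factors 9 permeases rose and 7 fell in basket-less pores (median 0.08). Directly over the GFP control, 8 permeases were higher and 11 lower. GAP1, the general permease, was at 1673, 1645 and 1675 CPM in basket-less pores, 1251, 1272 and 1298 CPM in the GFP control and 550, 583 and 584 CPM in input. CAN1, the arginine permease, rose by 1.83 over input and PUT4, the proline permease, by 1.48, but PUT4 was lower than in the GFP control, by 0.68 on the log2 scale. Hexose transporters and sensors rose in 9 of 17 tested and fell in 4 (median 0.32), or rose in 5 and fell in 5 under upper-quartile scaling (median 0.07). The glucose sensor SNF3 rose by 1.51 and the transporter HXT5, made in slow growth, by 1.56. HXT3, a low-affinity transporter of high glucose, fell by 1.26, with 429 to 449 CPM in basket-less pores, 1350 to 1374 CPM in the GFP control and 981 to 1102 CPM in input. Near-identical transporters such as HXT6 and HXT7 share reads, and how those were counted is not given.

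mRNAs of basket proteins rose in 4 of 5 genes and fell in 1. MLP1 (YKR095W, chromosome XI, 619805 to 625432), the main filament protein, was at 512, 518 and 532 CPM in basket-less pores, 252, 259 and 260 CPM in the GFP control and 123, 120 and 123 CPM in input. The rise over input was 2.09 ± 0.04 (edgeR quasi-likelihood, adjusted p = 1.40e-23), and 1.07 of the same measure was present in the background control. For MLP2, its homolog, the control was close to input: 692, 715 and 711 CPM in basket-less pores, 242, 255 and 246 CPM in the GFP control and 215, 206 and 218 CPM in input, a rise of 1.73 ± 0.05. NUP1, an FG nucleoporin of the basket, rose by 1.57 ± 0.05 (320 to 346 CPM in basket-less pores, 143 to 148 CPM in the GFP control and 106 to 117 CPM in input). NUP2, a mobile basket protein, rose by 0.33, and NUP60, the anchor of the basket, fell by 0.52, at 64.1 to 67.2 CPM in basket-less pores and 91.9 to 95.8 CPM in input. Compared with all NPCs, a contrast that called 20.3% of all genes higher and 22.8% lower, MLP1 was lower in basket-less pores by 0.65 on the log2 scale (adjusted p = 8.51e-12), MLP2 by 0.23 and NUP1 by 0.18, while NUP2 (-0.06, adjusted p = 0.201) and NUP60 (0.11, adjusted p = 0.127) did not pass (edgeR quasi-likelihood, Benjamini-Hochberg). MLP1, MLP2 and NUP1 have more than 3000 coding bases. Of 491 genes of 3000 or more, 410 were lower in that contrast and 3 higher (median -0.29). MLP2 and NUP1 fell by less than that median.

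FG and cytoplasmic-side nucleoporins rose in 10 of 11 (median 0.31), though in 3 of 11 under upper-quartile scaling (median 0.05), led by GLE1, the Dbp5 activator, at 0.96 and NUP116 at 0.59, and the dynein light chain DYN2, which is also a nucleoporin, fell by 1.11. The Nup84 Y-complex, a scaffold ring, had 3 higher and 3 lower of 7, with a median of 0.10 that was -0.01 under DESeq2 scaling and -0.15 under upper-quartile scaling. NUP145 rose by 0.49, and NUP85 and NUP120 fell by 0.45 and 0.37. Inner ring and membrane nucleoporins had 3 higher and 5 lower of 11 (median -0.03), or 2 higher and 9 lower under upper-quartile scaling (median -0.28), with medians of -0.13 under DESeq2 scaling and 0.01 at the highest setting tried, and with NIC96 at -0.93 and ASM4 at 0.58.

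Karyopherins, the carriers of proteins through the pore, fell in 10 of 15 and rose in 3 (median -0.72), and fell in 14 of 15 in the GFP control over input (median -0.83). KAP123, an importer of ribosomal proteins, was at 188 to 193 CPM in basket-less pores, 141 to 150 CPM in the GFP control and 340 to 345 CPM in input (-0.85 ± 0.04), so that the list was low in both purifications, and over the GFP control 11 of the 15 were higher in basket-less pores. mRNA export factors had 7 higher and 6 lower of 15 (median 0.05, -0.06 under DESeq2 scaling and -0.21 under upper-quartile scaling). NAB6, an RNA-binding protein, was at 1167, 1186 and 1167 CPM in basket-less pores and 341, 346 and 316 CPM in input (1.81 ± 0.04), and HRP1, a cleavage and export factor, fell by 1.15. Of the TREX-2 and THO subunits, which couple transcription to export, 7 of 11 rose and 4 fell (median 0.37), among them SAC3, the scaffold of TREX-2 at the basket, at 0.80 and MFT1, a THO subunit, at 0.96.

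Ribosomal protein mRNAs were lower in basket-less pores than in input in all genes of both lists but RPL15B, at 0.05 and not called. Of 81 large-subunit genes 0 rose and 80 fell (median -1.41), and of 57 small-subunit genes 0 rose and 57 fell (median -1.47). Both lists were much closer to input in the GFP control, where 28 rose and 42 fell (median -0.14) and 11 rose and 35 fell (median -0.28). The large-subunit list took 3.78 ± 0.034% of counts in basket-less pores, 7.80 ± 0.16% in the GFP control and 8.18 ± 0.22% in input, and the small-subunit list 2.62 ± 0.034%, 5.47 ± 0.038% and 6.58 ± 0.10% in the same order. RPL38 had the largest fall of the nuclear genes named, at 76.4, 88 and 81.8 CPM in basket-less pores, 271, 275 and 302 CPM in the GFP control and 724, 676 and 661 CPM in input (-3.06 ± 0.07; edgeR quasi-likelihood, adjusted p = 4.03e-20). RPS12 was at 487, 503 and 520 CPM in basket-less pores, 2047, 2307 and 2041 CPM in the GFP control and 3028, 3232 and 3583 CPM in input (-2.70 ± 0.09). RPS31, made as a fusion of ubiquitin with a ribosomal protein, had 769, 790 and 799 CPM in basket-less pores and 4104, 4217 and 4389 CPM in input (-2.43 ± 0.05). RPL9A, RPL40A and RPL25 fell by 2.44, 1.97 and 1.98, and ASC1, the scaffold of the small subunit, by 1.87 (884 to 897 CPM in basket-less pores and 3210 to 3285 CPM in input). RPL41B (-3.05) and RPS28B (-2.70) have near-identical copies, so their values are uncertain. Set against all NPCs, 71 of 81 large-subunit and 56 of 57 small-subunit genes were higher in basket-less pores and none lower, with medians of 0.42 and 0.41. That contrast called 20.3% of all genes higher and 22.8% lower. Of 860 genes under 500 coding bases, 270 were higher in it and 37 lower (median 0.17).

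Genes that build ribosomes fell less than the ribosomal proteins. Small-subunit assembly factors fell in 46 of 63 and rose in 6 (median -0.41), and large-subunit assembly factors fell in 52 of 70 and rose in 11 (median -0.50). The GFP control gave about the same medians, -0.47 and -0.43, and over that control the lists were split, with 25 higher and 25 lower and with 33 higher and 25 lower in basket-less pores. UTP4 and UTP8, of the complex that starts small-subunit assembly, fell by 1.20 and 1.30 in basket-less pores, and by 1.59 and 1.27 in the control, against the same input. DBP2, a helicase, fell by 1.57 and by 1.42 in the control. REA1 went against its list. It encodes a very large ATPase that pulls assembly factors off the pre-ribosome, has a coding length of 14733 bases, and was at 1225, 1218 and 1180 CPM in basket-less pores, 560, 582 and 564 CPM in the GFP control and 405, 428 and 456 CPM in input (1.49 ± 0.05). RRP14, another assembly factor, rose by 1.15 in basket-less pores and by 1.03 in the control. The core proteins of small nucleolar ribonucleoproteins fell in 7 of 8 (median -0.30), led by SNU13 (-1.76) and NOP10 (-1.69).

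The transcription and translation lists held falls and fewer rises. Of 12 RNA polymerase II subunits 3 rose and 8 fell (median -0.61). RPO21, the largest subunit, with 5202 coding bases, rose by 1.38 ± 0.05 (994, 979 and 933 CPM in basket-less pores, 515, 455 and 501 CPM in the GFP control and 384, 380 and 352 CPM in input), and RPC10, a small subunit of all 3 nuclear polymerases with 213 coding bases, fell by 1.79 ± 0.10. RNA polymerase I subunits fell in 7 of 9 and rose in 2 (median -0.68), and RNA polymerase III subunits fell in 6 of 11 and rose in 2 (median -0.26), RPC31 being higher at 0.78 (137 to 144 CPM in basket-less pores and 80.1 to 86.9 CPM in input). Translation initiation factors fell in 16 of 26 and rose in 5 (median -0.41). CDC33, the cap-binding protein, fell by 1.22 and SUI1, which selects the start codon, by 1.40. TIF4632, the large scaffold eIF4G2, rose by 1.25. Elongation and termination factors fell in 10 of 13 and rose in 3 (median -0.48), with EFB1 at -1.18 and the near-identical TEF1 and TEF2 at -0.89 and -0.92.

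**Figure D3:**
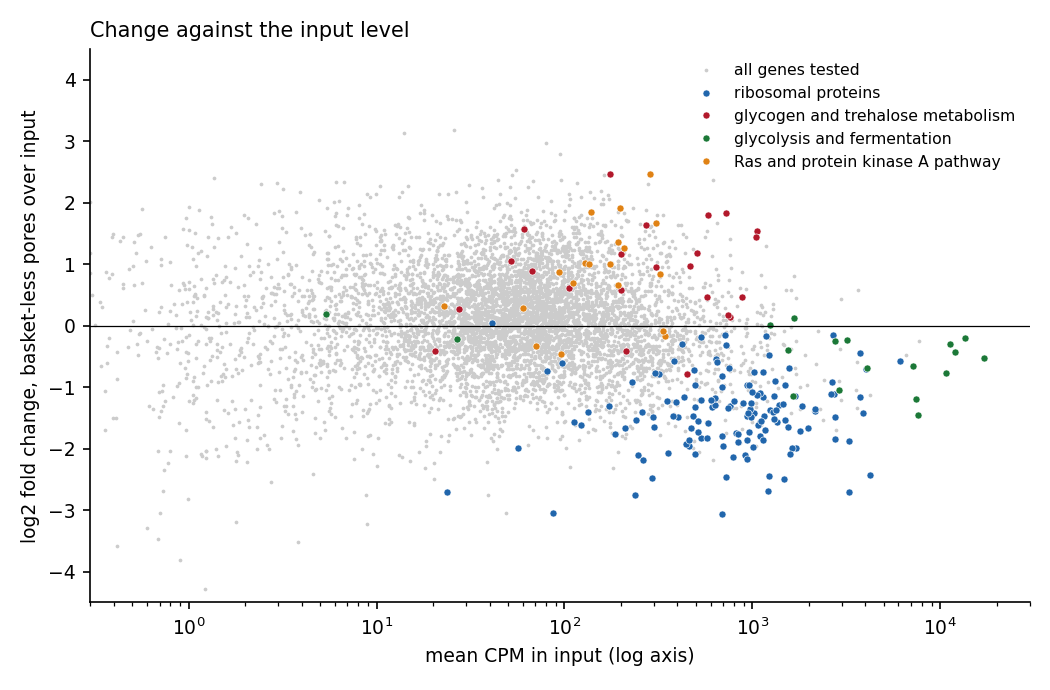
Log2 fold change of basket-less pores over input against mean CPM in input on a log axis, 1 point per gene, with 27 of the 6429 genes outside the axes. Ribosomal protein genes (blue) lie below 0, apart from RPL15B at 0.05, while glycogen and trehalose genes (red) and Ras and protein kinase A genes (orange) lie mostly above 0.

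Enzymes of glycolysis and fermentation fell in 14 of 18 and rose in 1 (median -0.40), and took 7.47 ± 0.037% of counts in basket-less pores, 9.78 ± 0.19% in the GFP control and 10.4 ± 0.28% in input. PDC1, pyruvate decarboxylase and the largest loss in CPM, was at 11706, 11979 and 11867 CPM in basket-less pores, 10885, 11433 and 11118 CPM in the GFP control and 16554, 17185 and 17613 CPM in input. PDC1 fell by 0.53 over input, and its difference from the GFP control, 0.09, was the smallest among the genes with the largest changes in fold or in CPM over input (adjusted p = 0.0439). PGK1, phosphoglycerate kinase, was at 2783, 2759 and 2820 CPM in basket-less pores, 5380, 5682 and 5390 CPM in the GFP control and 7380, 7717 and 7747 CPM in input (-1.45 ± 0.05; edgeR quasi-likelihood, adjusted p = 4.19e-19). GPM1, phosphoglycerate mutase, fell by 1.19 and HXK2, the main hexokinase of glucose growth, by 1.14. TDH3 and ENO2 fell by 0.42 and 0.77, and in the GFP control over input TDH3 was higher by 0.25.

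Nuclear-encoded subunits of oxidative phosphorylation fell in 34 of 39 and rose in 4 (median -0.70), while in the GFP control over input 15 rose and 13 fell (median -0.01). The ATP synthase subunit ATP7 was at 101, 104 and 102 CPM in basket-less pores, 301, 302 and 301 CPM in the GFP control and 273, 282 and 308 CPM in input (-1.49 ± 0.05). ATP5, ATP17 and COX6 fell by 1.44, 1.80 and 1.35. Proteasome subunits fell in 27 of 33 and rose in 2 (median -0.40), PRE9 most of those named, by 1.28. Mitochondrial ribosomal proteins, in contrast, had 30 higher and 21 lower of 67 (median 0.06, -0.05 under DESeq2 scaling and -0.19 under upper-quartile scaling), and 46 higher and 8 lower in the GFP control (median 0.46). MRPL8 was at 110 to 116 CPM in basket-less pores and 59.2 to 66.4 CPM in input, a rise of 0.85 beside 1.52 in the control. TOM7, a small subunit of the mitochondrial import channel, fell by 2.49, at 3.10 to 3.97 CPM in basket-less pores and 17 to 24.1 CPM in input.

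Of 11 histone mRNAs 8 fell and 0 rose (median -0.35), with HHT1 at -1.23 and HTA1 at -1.06. Genes of protein entry into the endoplasmic reticulum and of glycosylation fell in 20 of 30 and rose in 6 (median -0.37), SEC61, the channel itself, rising by 0.70 and its small partner SBH1 falling by 1.02. Cell wall mannoproteins and wall enzymes were split, with 20 higher and 14 lower of 41 (median 0.12, and -0.13 under upper-quartile scaling). TIP1 and CIS3, small wall proteins, fell by 2.06 and 1.28, and GSC2, a glucan synthase subunit of 5688 coding bases, rose by 1.14. Myosins, kinesins and dynein, which are long genes, rose in 11 of 12 with 0 lower (median 0.74), and all 12 were lower in basket-less pores than in all NPCs. The median of that difference was -0.29. It was also -0.29 in all genes of 3000 coding bases or more, of which 410 of 491 were lower. MYO3 rose by 1.14 and DYN1, the dynein heavy chain, by 1.10. Of 14 mRNAs that are carried to the bud, 9 rose and 3 fell (median 0.40); ASH1, the best known of them, rose by 0.46 and ERG2 fell by 1.48. Among cyclins and SIC1, 3 rose and 2 fell of 10 (median 0.03, -0.22 under upper-quartile scaling), SIC1, an inhibitor of cyclin-dependent kinase, by 1.30.

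Coding length moved with the change. The median log2 fold change was -0.53 in 860 genes under 500 coding bases, -0.17 in 1439 genes of 500 to under 1000, 0.16 in 2174 genes of 1000 to under 2000, 0.40 in 798 genes of 2000 to under 3000 and 0.73 in 491 genes of 3000 or more. In the GFP control over input the medians in the same order were 0.21, 0.02, -0.13, -0.21 and -0.06. Of the longest class 381 rose and 56 fell, and of the shortest 137 rose and 505 fell. Across 5762 genes, which are not independent replicates and share the libraries, Spearman's rho of log2 fold change with coding length was 0.44 for basket-less pores and -0.15 for the GFP control. The longest class took 14.4 ± 0.049% of counts in basket-less pores, 8.37 ± 0.071% in the GFP control and 8.31 ± 0.11% in input, and the shortest 5.78 ± 0.026%, 13.3 ± 0.12% and 12.1 ± 0.22%. In all NPCs the longest class took 17.5% and the shortest 4.85%. Where the median of each gene's length class was taken off, the list medians were -1.02 and -1.01 for large- and small-subunit ribosomal proteins, 0.77 for glycogen, 0.50 for trehalose, 0.53 for the Ras and protein kinase A pathway, -0.46 for oxidative phosphorylation, 0.84 for the basket and 0.17 for myosins, kinesins and dynein. On that measure histones and the mRNAs carried to the bud were at 0.02, arginine genes at 0.0 and adenine genes at 0.08. TREX-2 and THO subunits were at 0.07 and FG and cytoplasmic-side nucleoporins at -0.08. The medians of these lists were thus near those of their length classes. Karyopherins moved further down, to -1.12, and mitochondrial ribosomal proteins up, to 0.37.

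**Figure D4:**
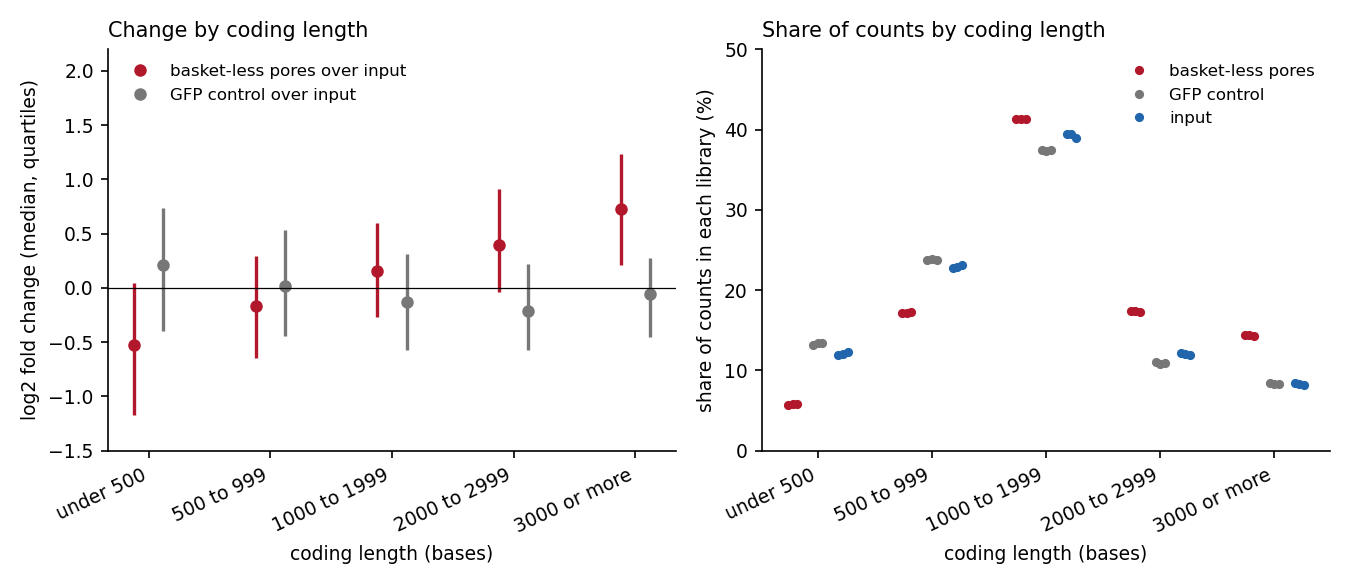
Left, median (point) and quartiles (line) of log2 fold change in 5 classes of coding length for basket-less pores over input (red) and GFP control over input (grey). Right, the share of counts of each class in each library of basket-less pores (red), GFP control (grey) and input (blue). The red medians rise with each class, from -0.53 under 500 bases to 0.73 at 3000 or more, and the grey ones do not.

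The level in input moved with the change as well. In 139 genes at 1000 CPM or more in input 21 rose and 110 fell (median -0.83), and the medians were -0.01 at 100 to under 1000 CPM, 0.16 at 10 to under 100 CPM and -0.02 under 10 CPM. These classes were set by the input values that also enter the fold change. At 100 to under 1000 CPM the median was -1.19 in genes under 500 coding bases and 0.78 in those of 3000 or more. The part of length, level or RNA quality in the changes of single genes was not tested.

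Genes whose level depends on strain building or on the nutrient state of the culture also differed. URA3, an enzyme of uracil synthesis often used as a strain marker, was at 712, 712 and 705 CPM in basket-less pores, 1711, 1701 and 1748 CPM in the GFP control and 207, 216 and 231 CPM in input. LEU2, a leucine synthesis enzyme and marker, was at 744, 710 and 729 CPM in basket-less pores, 655, 638 and 657 CPM in the GFP control, log2 fold changes of 2.07 and 1.91 over the same input. For both markers the purifications lie far above input. HIS3 rose by 0.68 in basket-less pores and by 2.38 in the control, and TRP1 fell by 0.65 in basket-less pores and was higher by 0.86 in the control. ADE2 was at 440 to 457 CPM in basket-less pores, 147 to 154 CPM in the GFP control and 493 to 523 CPM in input.

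ARG3, ornithine carbamoyltransferase of arginine synthesis, fell almost as far as RPL38, at 6.14, 6.28 and 5.18 CPM in basket-less pores, 65.2, 79.6 and 75.6 CPM in the GFP control and 48.4, 53.2 and 44.6 CPM in input (-3.05 ± 0.15; edgeR quasi-likelihood, adjusted p = 1.28e-13). ARG1, the next enzyme of the pathway, fell by 1.04 over input and was higher by 2.16 in the GFP control, while ARG4, the last one, rose by 0.96. The arginine list as a whole had 8 higher and 5 lower of 14 (median 0.36) in basket-less pores and 12 higher and 1 lower in the control (median 0.58). Adenine synthesis genes rose in 7 of 11 and fell in 3 (median 0.45), and in the control 3 rose and 7 fell (median -1.04). ADE17 was at 1474, 1484 and 1448 CPM in basket-less pores, 156, 152 and 144 CPM in the GFP control and 788, 778 and 738 CPM in input. Of 22 aryl-alcohol dehydrogenase and redox enzyme genes 7 rose and 13 fell in basket-less pores (median -0.31), whereas 21 rose and 0 fell in the control (median 0.86). OYE3, an NADPH oxidoreductase, was at 11.4, 11 and 12.4 CPM in basket-less pores, 213, 216 and 221 CPM in the GFP control and 43.5, 39.9 and 38.9 CPM in input. For ARG3, ARG1, ADE17 and OYE3 the order of basket-less pores and input and that of the control and input are opposite. This does not hold for all genes of these lists. ARG4, for example, was higher than input in both, by 0.96 and 0.71.

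**Figure D5:**
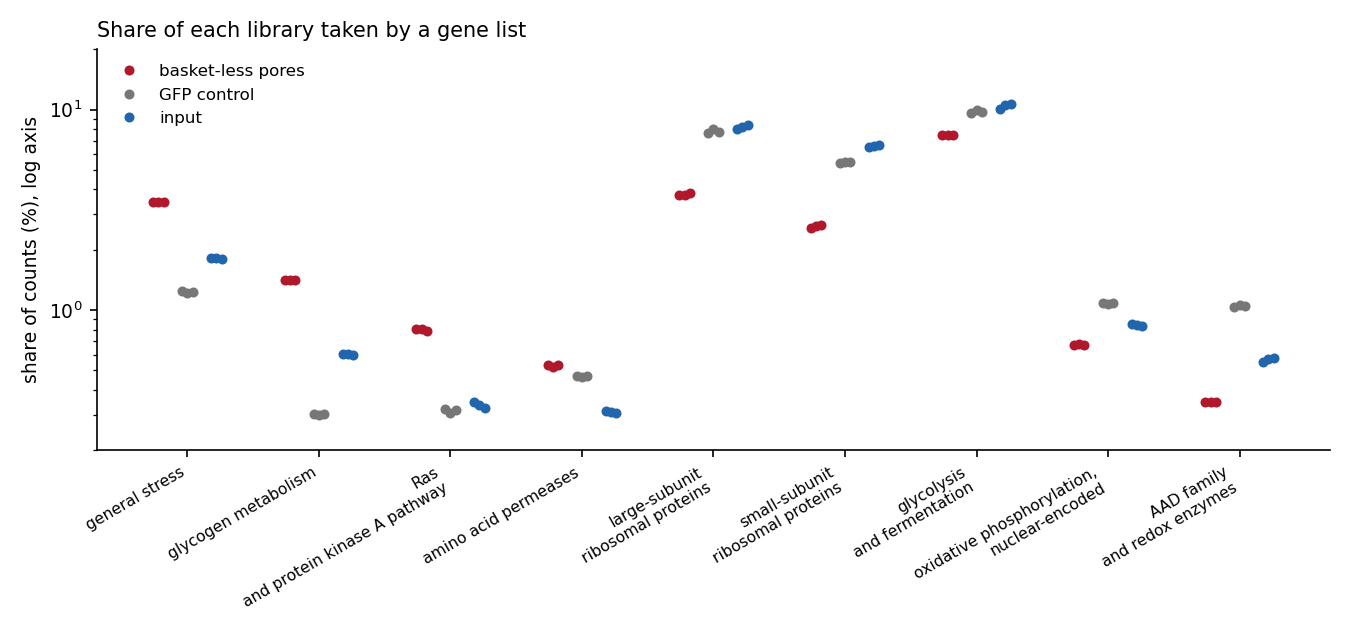
Share of counts, in percent on a log axis, taken by 9 gene lists in each library of basket-less pores (red), GFP control (grey) and input (blue). Among the groups drawn, general stress, glycogen and Ras and protein kinase A genes take the largest share in basket-less pores, and ribosomal protein genes the smallest. All NPCs are not drawn. Their shares were larger still for the former lists and smaller still for ribosomal protein genes.

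RNAs without a poly(A) tail in their mature form were rare in all libraries. Small nucleolar and nuclear RNAs made up 0.0215 ± 0.0016% of counts in basket-less pores, 0.0567 ± 0.0017% in the GFP control and 0.0463 ± 0.0050% in input. Of 70 tested, 3 rose and 43 fell over input (median -1.23). SNR30, needed for cleavage of the ribosomal RNA precursor, was at 6.60, 5.05 and 5.83 CPM in basket-less pores, 33.5, 42.1 and 35.5 CPM in the GFP control and 35.4, 37.8 and 44 CPM in input (-2.76 ± 0.16). Reads of such RNAs in introns of host genes cannot be told from the host transcript.

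Transcripts of the mitochondrial genome were 0.0474 ± 0.0033% of counts in basket-less pores, 0.0242 ± 0.0031% in the GFP control and 0.0105 ± 0.0015% in input. Of 13 tested, 11 rose and 1 fell, 15S_RRNA. AI5_BETA, an intron reading frame of COX1, had 1695, 2568 and 2545 counts in the basket-less libraries, 5, 1 and 3 in the GFP control and 2, 1 and 2 in input. COX1, a subunit of cytochrome c oxidase, had 506, 696 and 785 counts in the basket-less libraries, 31, 20 and 31 in the GFP control and 10, 12 and 16 in input (log2 fold change over input 5.71 ± 0.24). The features of this locus overlap on the same strand, so their rises are not separate. In all NPCs over input, AI5_BETA and COX1 rose further, by 10.62 and 6.97 on the log2 scale. Basket-less pores over all NPCs gave -0.3 for AI5_BETA and -1.26 for COX1 (edgeR quasi-likelihood, adjusted p = 0.0174 and 2.19e-07). Of the 13 mitochondrial features, 4 were higher and 7 lower in that contrast. The rises over input of AI5_BETA and COX1 were therefore not particular to basket-less pores. 21S_RRNA had 930 to 1196 counts in basket-less pores, 1636 to 2239 in the GFP control and 609 to 991 in input. It was thus highest in the GFP control.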

How the data were processed

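Poly(A) RNA of 18 libraries in 6 groups of 3 was sequenced. The deposited values are raw counts per gene, made by the authors with STAR, featureCounts, DESeq2 and build R64 among the tools named, per the submitters' processing notes, which give no versions. Neither strandedness nor the handling of multi-mapping reads is stated there. From these counts edgeR 4.0.16 in R 4.3.3 (filterByExpr, TMM, robust glmQLFit, glmQLFTest; group as the only term) was fitted over all 18 libraries and 6429 genes, called at a Benjamini-Hochberg adjusted p below 0.05. CPM are TMM-scaled. Shares are percentages of a library's total. Totals ran from 10592840 to 16620246 counts, and counting error relative to the level is smallest for abundant genes. Lengths are coding lengths of RefSeq R64. The fit was tested on simulated counts in which 200 genes were changed, by a log2 fold change of 1 or 2 in either direction. In each class of change 94% to 100% were called, and 0.178% of 6174 unchanged genes. Far fewer genes changed there than were called in the data, so the simulation does not test the scaling.

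Genes named were called, reached a mean of 20 CPM in the higher group, and had groups that did not overlap: the 10 largest rises and falls, of all and of standard-named genes, the 10 largest gains and losses in CPM, up to 4 of each list by adjusted p, and the extremes against the GFP control. Basket and marker genes were named without this condition. TRP1, at means of 10.8 CPM in basket-less pores and 16.8 CPM in input, did not reach 20 CPM. Others are said to be picked later. In lists, members against the direction of the list were also picked after their values were seen. Members and lists were chosen with earlier results of these data known. Alternatives were DESeq2 size factors, upper-quartile factors, no filter on low counts, a filter at a mean count of 50, the DESeq2 1.42.0 Wald test, a replicate block, only the 6 libraries compared, and leaving out each library. Basket-containing pores and the PrA control entered the fit and were otherwise not used here.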

Additional observations from a re-analysis of the deposited data

How the results depend on the processing

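All 193 genes named by the rule kept their direction and their call in 2509 of 2509 values over the alternatives tried. Most of them were picked from these same counts for a clear change, so this outcome was largely set by the choice. The counts called for basket-less pores over input were 5120 with DESeq2 size factors, 5179 with upper-quartile factors, 5134 with no filter, 4969 with a mean count of at least 50, 5095 with the DESeq2 Wald test and 5215 with only the 6 libraries compared, against 5149. With upper-quartile factors 466 genes were higher and 981 lower by more than 2-fold, against 792 and 627, a shift in the zero point of the scale by construction. Leaving out 1 library at a time gave 4952 to 5011 calls, 2725 to 2770 higher and 2227 to 2259 lower, and 774 to 820 higher and 612 to 633 lower by more than 2-fold. For the GFP control over input these ranges were 4964 to 5012 called, 2322 to 2349 higher and 2637 to 2668 lower, and for basket-less pores over GFP control 5115 to 5190, 2932 to 2972 and 2183 to 2239. Same-numbered libraries of basket-less pores and input did not deviate together (correlations of -0.044, -0.078 and 0.007), so no pairing was seen in the counts. This cannot tell whether same-numbered libraries shared a culture or extract, since a shared source need not leave a shared deviation. With the replicate block 5154 genes were called, 2833 higher and 2321 lower. Genes with few counts, such as the mitochondrial transcripts in input, are limited by depth.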
